A study of Rattus norvegicus with 6 samples.

Results

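Autophagy machinery genes encode the proteins with which a cell builds an autophagosome, a double membrane that encloses cytoplasm or a chosen cargo and delivers it to the lysosome. A list of 51 such genes was examined in NRK-52E cells, an established epithelial line from rat kidney tubule, and 46 of them were measured. Members were the genes of the list that a probe set named alone in the platform annotation, with the probe set of the highest mean over all arrays standing for each gene. Map1lc3b, Gabarapl2 and Nbr1 were read only by probe sets that the annotation shares with another gene, so they were given no value, and Atg4c and Calcoco2 were not analysed here. The measured members were 46 of 14217 genes on the arrays. Expression was read on 6 Affymetrix rat arrays from cells that had all been treated with recombinant TGF-β1 at 10 ng/mL for 24 h, a cytokine used in this study to drive epithelial-mesenchymal transition. On 3 arrays the cells had received the shAMPKα2 lentivirus, whose hairpin is directed at AMPKα2, one of the catalytic subunits of the AMPK energy sensor. On the other 3 they had received the control lentivirus, shCtrl. The labels call each set of 3 biological replicates without saying what was repeated, so p-values measure the spread between these arrays, which may be technical. The hairpin's sequence, and whether the cells were a pool or a clone, are not given in the sources used here. Cells without TGF-β1 or without a lentivirus were not analysed here.

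AMPK and mTORC1 are known to act on autophagy from opposite sides through the ULK1 kinase complex, which AMPK can activate and mTORC1 restrains. The ULK complex in turn acts on a lipid kinase complex around beclin 1, whose product recruits WIPI proteins and the machinery that attaches LC3 and GABARAP proteins to the growing membrane. Cargo receptors bind LC3 or GABARAP on one side and the cargo on the other, and SNARE proteins then join the closed autophagosome to the lysosome. In the kidney tubule, autophagy is known for its part in the turnover of mitochondria and in the response to injury. Most of this regulation acts on proteins, and the arrays read RNA levels alone.

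The labels' groups differed over most of the array, which sets the scale for every member. Values were log2 expression, so a difference of 1 is a 2-fold change. The SD over probe sets was 1.76 to 1.82 on the hairpin arrays and 2.17 to 2.19 on the control arrays. Genes at low levels were mostly higher with the hairpin, and those at middle and high levels mostly lower: the median change was 0.79 at mean levels of 5 to 6 and -0.71 at levels of 8 to 9. The values as deposited are the main ones, and the members were also tested on 3 rescalings of the arrays, called here the quantile, loess and centred scales (quantile normalization, cyclic loess, and subtraction of each array's median). A change with no scale named is as deposited. Prkaa2, the gene the hairpin is labelled to target, stood at 6.63 ± 0.14 (SD, n = 3) against 6.84 ± 0.05 in the control, a difference of -0.21 (SE 0.09) with an adjusted p of 0.0552 (limma), which missed the threshold of 0.05. It was -0.05 on the quantile scale (adjusted p = 0.636), -0.15 on the loess scale (adjusted p = 0.115) and -0.42 on the centred scale, where it passed (adjusted p = 0.00145). A lower level of Prkaa2 was thus called on 1 of the 4 scales, and group names follow the labels. Prkaa1, the gene of the other catalytic subunit, fell by 2.34 (SE 0.09) and was lower in all 4 scalings by the probe set used. Another of its probe sets fell by 1.03, and the remaining one, at a control level of 3.87, rose by 0.55. Of the markers of tubule epithelium, Krt8 was high, at 12.24 with the hairpin and 12.49 in the control, and the kidney factor gene Pax8 stood at 7.77 and 6.57, whereas Cdh1 (4.74 and 4.31), Krt18 (3.86 and 3.53) and Epcam (3.47 and 2.97) were near the low end. Markers of other cell types were at mean levels between 3.11 and 6.56, and 5 of 5 measured fibroblast, 5 of 5 immune, 3 of 4 endothelial and 2 of 3 podocyte markers were called higher with the hairpin as deposited, as were 7 of 9 tubule markers, while 1 tubule marker was lower. Over all genes 43.6% were called higher. Their median change was 0.42, 0.69, 0.79 and 0.19 in successive units of mean level from 3 to 7, so genes at marker levels mostly rose. The log2 of the summed signal of the fibroblast markers was 7.98 to 8.15 with the hairpin against 7.12 to 7.15 in the control, and that of the immune markers 8.34 to 8.57 against 7.37 to 7.49. For the endothelial markers it was 6.75 to 7.08 against 6.25 to 6.59, for the podocyte markers 7.56 to 7.84 against 6.82 to 7.09, and for the tubule markers 12.26 to 12.42 against 12.52 to 12.59. The tubule sum was mostly Krt8, at a mean level of 12.37, where the next marker, Pax8, stood at 7.17. The change of Krt8, the tubule marker called lower, did not pass on the quantile (-0.06) or loess (0.10) scale. The part of these shifts in the members' results was not tested.

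With the values as deposited, 27 of the 46 members (58.7%) passed at an adjusted p of 0.05 in limma's test. With the hairpin 11 were higher and 16 lower. Over all 14217 genes 85.1% passed, 43.6% higher and 41.5% lower, so the members' share lay below the background. The groups did not overlap in 31 members (67.4%), against 87.1% of all genes. The median change of the members was -0.08, and that of all genes was 0.05. The size of the change, taken without its sign, had a median of 0.45 among the members and 0.72 among all genes. The members were well expressed: 33 of them (71.7%) had a mean level of 7 or more, as had 47.9% of all genes. At those levels 8 members were higher, 13 lower and 12 did not pass, which is 24.2% higher and 39.4% lower, while among all genes at those levels 15.3% were higher and 67.9% lower. The median change at those levels was -0.08 among the members and -0.59 among all genes. At a fold of at least 2, 5 members were called higher and 6 lower, beside 11.6% and 18.6% of all genes. No test of the list was made, and these shares describe it. In RNA from whole cultures, fewer cells of a kind and less RNA per cell cannot be told apart.

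The split of calls moved with the scaling of the arrays. On the quantile scale 27 members were higher and 13 lower (43.8% and 28.9% of all genes). On the loess scale these counts were 28 and 13 (40.2% and 31.5%), and on the centred scale 9 and 27 (35.0% and 48.2%). The members' median was 0.37, 0.30 and -0.30 in that order, beside 0.16, 0.09 and -0.17 for all genes. In all 4 scalings 20 members (43.5%) were called in 1 direction, 9 higher and 11 lower, against 52.0% of all genes, 25.5% higher and 26.4% lower. These 20 members are Ulk1, Atg2a, Wdr45, Zfyve1, Atg7, Gabarap, Gabarapl1, Calcoco1 and Pink1, which were higher, and Atg13, Becn1, Uvrag, Rubcn, Ambra1, Atg9a, Atg3, Optn, Bnip3, Bnip3l and Fundc1, which were lower. In each of the 20 the arrays of one group lay wholly above those of the other. They came from every step but fusion and the FOXO factors.

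**Figure D1:**
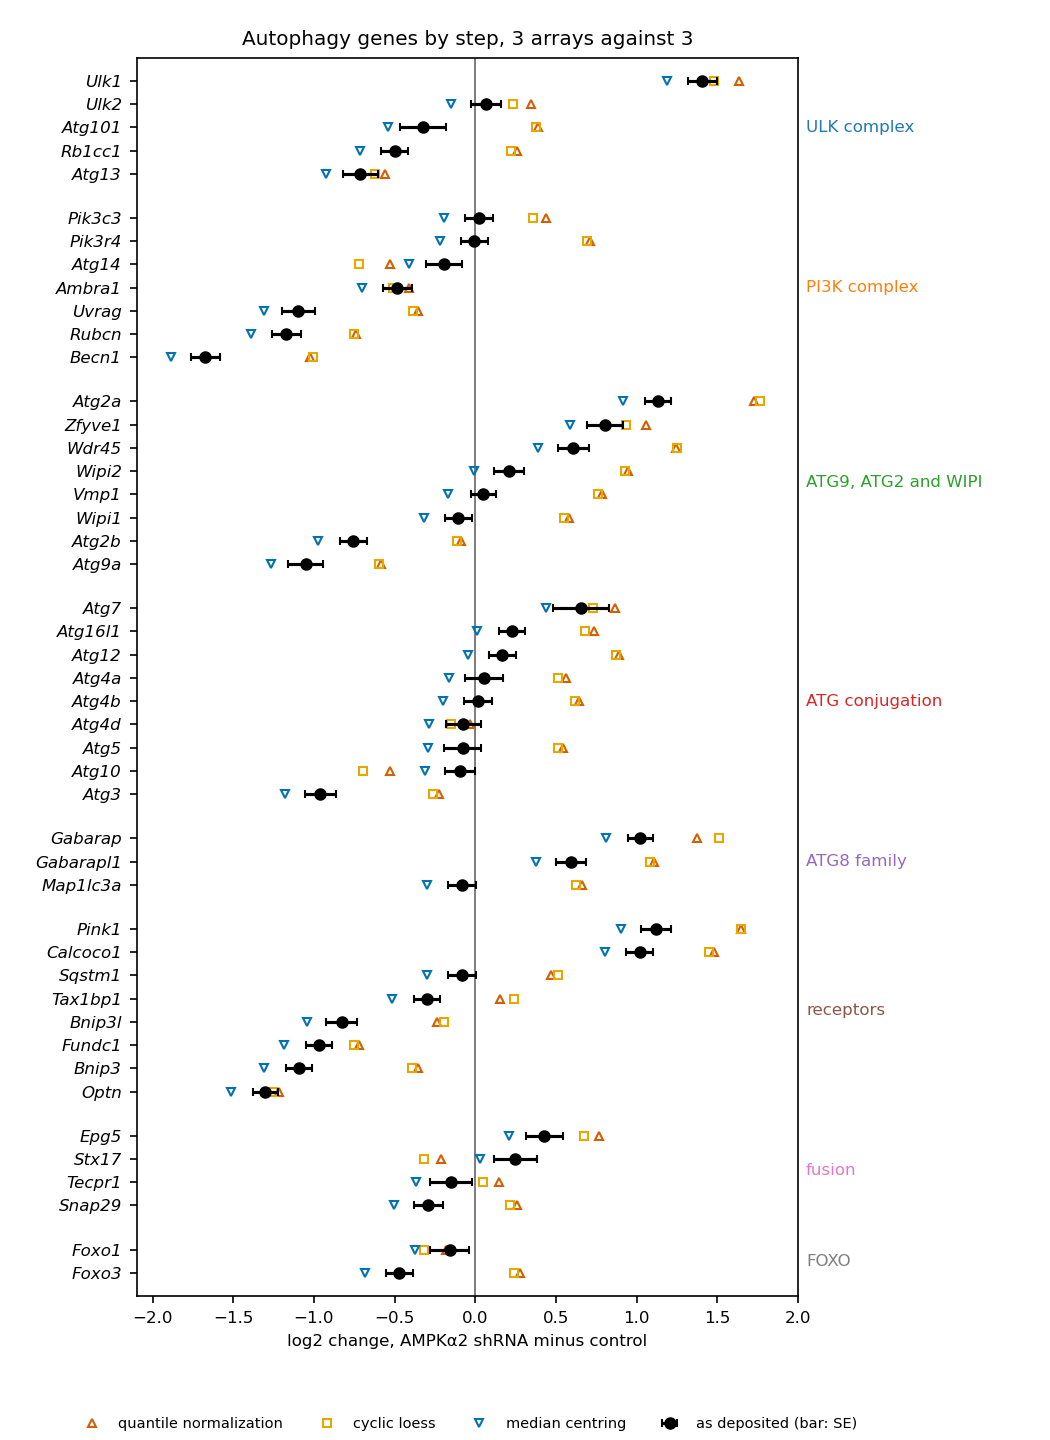
Log2 change of each of the 46 members (horizontal axis, AMPKα2 shRNA minus control, 3 arrays against 3), grouped by step; black points are the deposited values with their SE, open symbols the changes on the quantile, loess and centred scales. In the PI3K complex the deposited changes run from -1.67 to 0.02, while the ATG8 family runs from -0.08 to 1.02, and for many members near 0 the symbols lie on both sides of the line.

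Promoters from RefSeq (build GRCr8, 250 bases before to 50 after a gene's start) were matched by gene identifier for 39 of the 46 measured members. Atg9a, Becn1, Bnip3l, Foxo3, Fundc1, Map1lc3a and Rb1cc1 were not matched. The letters CACGTG, the core of the element bound by TFEB and its relatives and by other basic helix-loop-helix factors, were searched on both strands, which read alike. They occurred in 7 of the 39 members (17.9%) and in 7.08% of all 27457 genes with a listed promoter. The letters GTAAACA, bound by FOXO and other forkhead factors and also searched on both strands, occurred in 1 member, Wdr45 (2.56%), and in 4.13% of all genes. The motifs share no overlapping match in these members. Of these 7 members 3 were called in 1 direction in all 4 scalings. Their promoters are shown because they hold the same letters beside changes in both directions: Atg3 and Bnip3 were lower and Pink1 was higher. All lie on the minus strand and are written 5′ to 3′ along the gene, with each CACGTG in capitals. Atg3 lies at chr11:69159231-69159530, Bnip3 at chr1:203154913-203155212 and Pink1 at chr5:155825901-155826200.
Atg3: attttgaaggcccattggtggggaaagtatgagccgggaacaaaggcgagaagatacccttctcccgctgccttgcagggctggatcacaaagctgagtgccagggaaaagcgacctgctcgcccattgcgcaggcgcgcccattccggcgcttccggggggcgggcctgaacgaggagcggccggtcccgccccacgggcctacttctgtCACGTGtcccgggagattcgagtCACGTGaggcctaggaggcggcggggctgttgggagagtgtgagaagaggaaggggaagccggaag
Bnip3: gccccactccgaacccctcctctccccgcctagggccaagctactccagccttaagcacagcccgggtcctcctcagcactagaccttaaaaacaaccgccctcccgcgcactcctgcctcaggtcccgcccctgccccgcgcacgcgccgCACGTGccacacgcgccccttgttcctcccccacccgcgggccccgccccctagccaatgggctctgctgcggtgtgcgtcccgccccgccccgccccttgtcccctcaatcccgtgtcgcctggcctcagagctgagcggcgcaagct
Pink1: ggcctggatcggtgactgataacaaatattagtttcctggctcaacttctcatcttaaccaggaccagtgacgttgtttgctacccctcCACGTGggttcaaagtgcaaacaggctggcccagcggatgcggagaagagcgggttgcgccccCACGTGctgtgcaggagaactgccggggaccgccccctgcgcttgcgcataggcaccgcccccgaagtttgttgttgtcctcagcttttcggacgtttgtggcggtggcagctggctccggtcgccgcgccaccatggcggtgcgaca
In Atg3 the matches begin 39 and 16 bases before the start, in Bnip3 99 bases before it, and in Pink1 161 and 98 bases before it. The other members with the letters were Atg14, Atg5, Epg5 and Snap29, none of which was called in 1 direction throughout. A match is a description of these letters and shows no binding.

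The ULK complex starts autophagosome formation, and its members did not move together. Of 5 members, 1 was higher and 2 lower as deposited, and on the quantile and loess scales 4 were higher and 1 lower. Over all genes 43.6% were higher and 41.5% lower as deposited, and 43.8% and 28.9% on the quantile scale. Ulk1, the kinase itself, read 7.54, 7.36 and 7.51 with the hairpin and 6.17, 6.03 and 5.97 in the control. Every hairpin array thus lay more than 1 unit above every control array. The rise was 1.41 (SE 0.09, a fold of 2.65, limma, adjusted p = 1.68e-07), with 1.63, 1.48 and 1.19 on the quantile, loess and centred scales, and its other probe set rose by 1.12. Among all genes within the same unit of mean level the median change was 0.19. Atg13, the regulatory partner that mTORC1 is known to phosphorylate, read 6.64, 6.34 and 6.34 with the hairpin and 7.09, 7.08 and 7.28 in the control. Its groups did not overlap, and it fell by 0.71 (SE 0.11, adjusted p = 8.63e-05), with changes between -0.93 and -0.56 over the 3 rescalings. Rb1cc1, the scaffold of the complex also called FIP200, had a change of -0.50 (SE 0.08) that passed as deposited but turned to 0.26 on the quantile scale and 0.22 on the loess scale, where it passed as well. Atg101, which stabilises ATG13, had -0.32 (SE 0.14), which did not pass (adjusted p = 0.0541), and was called higher on the quantile (0.39) and loess (0.37) scales and lower on the centred scale (-0.54). For Atg101 the third hairpin array, at 7.99, lay apart from the others at 8.47 and 8.64, and without it the change was -0.14. Without the second hairpin array the change was -0.46 and passed. Ulk2, a paralogue of Ulk1, had a change of 0.07 with a 95% interval of -0.14 to 0.27, and was called higher on the quantile scale (0.34, adjusted p = 0.0117) and the loess scale (0.23, adjusted p = 0.0485).

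Genes around beclin 1 were lower where they were called as deposited. Of the 7 members of the PI3K complex, which makes phosphatidylinositol 3-phosphate on the forming membrane, 0 were higher and 4 lower as deposited, and the same 4 were lower in all 4 scalings. Over all genes 41.5% were lower as deposited and 26.4% in all 4 scalings. Among all genes at levels of 7 or more 67.9% were lower as deposited. Becn1, the core scaffold, read 9.15, 9.21 and 8.97 with the hairpin and 10.79, 10.73 and 10.83 in the control. The gap between the groups was wider than 1.5 units at its narrowest. Becn1 fell by 1.67 (SE 0.09, a fold of 3.19, adjusted p = 4.88e-08), where genes of its level had a median of -0.71. Its changes were -1.03, -1.01 and -1.89 on the quantile, loess and centred scales. Rubcn encodes Rubicon, an inhibitor of the later complex. It read 6.92, 6.87 and 6.77 with the hairpin and 8.02, 7.92 and 8.14 in the control, and fell by 1.17 (SE 0.09, adjusted p = 5.21e-07), and by 0.74 on the quantile scale and 0.75 on the loess scale. Its other probe set, at a control level of 3.68, rose by 0.64. Uvrag, the partner that defines the complex with Rubicon, fell by 1.10 (SE 0.10) from 9.21 ± 0.02 (SD, n = 3) to 8.11 ± 0.18, and by 0.36 on the quantile scale and 0.39 on the loess scale. Genes of the level of Uvrag had a median change of -0.71. An activator of the complex and its antagonist were thus both lower by the probe sets used. Ambra1, a regulator that links beclin 1 to ULK1, had a change of -0.48 (SE 0.09), while its other probe set, at a control level of 3.99, had 0.22 and did not pass. The mean of these probe sets did not pass either.

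The catalytic part of the complex was not called as deposited and was called higher on 2 of the 3 rescalings. Pik3c3, the lipid kinase VPS34, had a change of 0.02 with a 95% interval of -0.17 to 0.22. Pik3r4, its regulatory subunit VPS15, had -0.01 with an interval of -0.19 to 0.18. Both passed as higher on the quantile scale (0.44 and 0.71) and the loess scale (0.36 and 0.69), and Pik3r4 as lower on the centred scale (-0.22). Atg14, the subunit that directs the complex to the autophagosome, had -0.19 (adjusted p = 0.118) and passed as lower in the other 3 scalings, at -0.41 to -0.72. On the quantile and loess scales the kinase subunit genes were therefore higher and the targeting gene lower.

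Genes of membrane supply and lipid transfer were called in both directions. Of 8 members 3 were higher and 2 lower as deposited, 6 higher and 1 lower on both the quantile and the loess scale, and 3 higher and 3 lower on the centred scale. The shares of all genes were 43.6% and 41.5% as deposited, and 43.8% and 28.9% on the quantile scale. Atg2a encodes a lipid transfer protein that feeds the growing membrane. It read 8.68, 8.72 and 8.62 with the hairpin and 7.56, 7.51 and 7.55 in the control, with an SD of 0.05 and 0.03. Atg2a rose by 1.13 (SE 0.08, adjusted p = 2.67e-07), where genes of its level had a median of -0.71, and by 1.73, 1.77 and 0.92 on the quantile, loess and centred scales. Its paralogue Atg2b was read by 4 probe sets. The one used had -0.76 (SE 0.09) at a control level of 8.52, which did not pass on the quantile scale (-0.09) or the loess scale (-0.11), and the other 3, at control levels of 4.27 to 5.51, rose by 0.78 to 1.03. A direction for Atg2b was thus not shown by these probe sets. Atg9a, the scramblase that works with ATG2, read 7.19, 6.96 and 6.81 against 7.92, 8.14 and 8.06, a fall of 1.05 (SE 0.11), but its other probe set rose by 0.56 and did so in all 4 scalings.

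The WIPI family reads the lipid made by the PI3K complex. Wdr45, which encodes WIPI4, rose by 0.61 (SE 0.10, adjusted p = 0.000124) from 7.84 ± 0.02 (SD, n = 3) to 8.45 ± 0.16, without overlap, and by 1.25 on the quantile and loess scales alike. Wipi1 had a change of -0.10 and Wipi2 of 0.21, neither of which passed (adjusted p = 0.246 and 0.0536). On the quantile scale both were called higher, by 0.58 and 0.94, and on the loess scale by 0.55 and 0.93, while on the centred scale Wipi1 had -0.32, a call in the other direction. Zfyve1, whose protein DFCP1 marks the membrane site where autophagosomes form, read 7.27, 7.48 and 7.03 with the hairpin and 6.47, 6.42 and 6.48 in the control. It rose by 0.81 (SE 0.11), whereas another of its 3 probe sets fell by 0.61 and the mean of all 3 did not pass. The probe set that fell was the brighter in the control, at 6.78 against 6.46. Vmp1, a membrane protein needed for autophagosomes to leave the endoplasmic reticulum, had 0.05 with a 95% interval of -0.13 to 0.22, and 0.78 on the quantile scale and 0.76 on the loess scale, which passed.

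The conjugation genes, which attach ATG8 proteins to lipid, mostly did not pass as deposited. Of 9 measured members 2 were higher, 1 was lower and 6 did not pass, and on both the quantile and the loess scale 6 were higher and 2 lower. Among all genes 43.6% were higher and 41.5% lower as deposited, and 43.8% and 28.9% on the quantile scale. Atg3, the E2-like enzyme that hands LC3 to the lipid, read 9.30, 9.05 and 8.97 with the hairpin and 10.07, 10.06 and 10.07 in the control. The control arrays were nearly equal and all hairpin arrays lay below them. Atg3 fell by 0.96 (SE 0.10, adjusted p = 4.17e-06), where genes of its level had a median of -0.71. The fall was 0.22 on the quantile scale and 0.26 on the loess scale, and without any 1 of 5 arrays, all but the first hairpin array, it was no longer called in all 4 scalings. Atg7, the E1-like enzyme of both conjugation pathways, read 7.19, 7.06 and 7.04 with the hairpin and 6.73, 6.65 and 5.95 in the control. The groups did not overlap, but the third control array lay apart from its group. Atg7 rose by 0.65 (SE 0.17, adjusted p = 0.0044), and by 0.41 without that array. Without it, or without any 1 hairpin array, Atg7 was no longer called in all 4 scalings. Of its other probe sets 1 rose by 0.50 and 1 had -0.06, which did not pass.

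The ATG12-ATG5-ATG16L1 complex marks where LC3 is attached, and its calls depended on the scale. Atg12 had 0.17 as deposited (adjusted p = 0.0734) and was called higher on the quantile scale (0.89) and the loess scale (0.87), but not on the centred scale (-0.05). Its other probe sets, at 0.46 and 0.38, passed as deposited. Atg16l1 rose by 0.23 as deposited (SE 0.08, adjusted p = 0.0227), by 0.73 on the quantile scale and by 0.68 on the loess scale. Its deposited call was lost at a threshold of 0.01 and without any 1 of 5 arrays, all but the third hairpin array, at changes of 0.20 to 0.24, and it had 0.01 on the centred scale. Atg5 had -0.08 with a 95% interval of -0.33 to 0.17, and was called higher on the quantile (0.54) and loess (0.51) scales and lower on the centred scale (-0.30). By the probe sets used, all 3 genes of the complex were thus called higher on the quantile and loess scales, and none was on the centred scale. Another probe set of Atg5 was higher on the quantile (0.51) and loess (0.41) scales. The remaining one, at a control level of 5.06, was lower on both (-0.37 and -0.55). Atg10, the E2-like enzyme for ATG12, had -0.10 with an interval of -0.30 to 0.11, and was called lower on the quantile (-0.53), loess (-0.70) and centred (-0.31) scales.

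The ATG4 proteases trim ATG8 proteins and also release them from lipid. As deposited the changes were 0.05 for Atg4a, 0.02 for Atg4b and -0.07 for Atg4d, none of which passed (adjusted p of 0.53 to 0.872). Atg4a was called higher on the quantile scale (0.56) and the loess scale (0.51), as was Atg4b (0.64 and 0.62). Atg4d was called on the centred scale alone, as lower (-0.29). The other probe set of Atg4b fell by 0.81, so no direction for Atg4b was common to its probe sets.

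Both measured GABARAP genes of the ATG8 family were higher with the hairpin by the probe sets used, and the measured LC3 gene showed no call as deposited. Gabarap, whose protein binds the membrane and recruits the ULK complex, read 12.03, 12.01 and 11.96 with the hairpin and 10.93, 10.98 and 11.02 in the control. It was the brightest of the 46 probe sets used, and every hairpin array stood above every control array. Gabarap rose by 1.02 (SE 0.08, adjusted p = 5.35e-07), where the median among genes of its level was -0.22, and by 1.37, 1.51 and 0.81 on the quantile, loess and centred scales. Its other probe set, at a control level of 7.63, fell by 0.54, and on the quantile and loess scales that fall did not pass. Gabarapl1 encodes a close relative. It read 8.01, 7.92 and 7.76 against 7.30, 7.40 and 7.21, a rise of 0.59 (SE 0.10, adjusted p = 0.000142), and its other probe set rose by 1.49 (SE 0.14). Both probe sets of Gabarapl1 were higher in all 4 scalings. Map1lc3a, which encodes LC3A, read 9.49, 9.42 and 9.29 against 9.51, 9.44 and 9.49, groups that overlapped. Its change of -0.08 did not pass (adjusted p = 0.374), and it passed in opposite directions on the quantile scale (0.66) and the centred scale (-0.30).

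**Figure D2:**
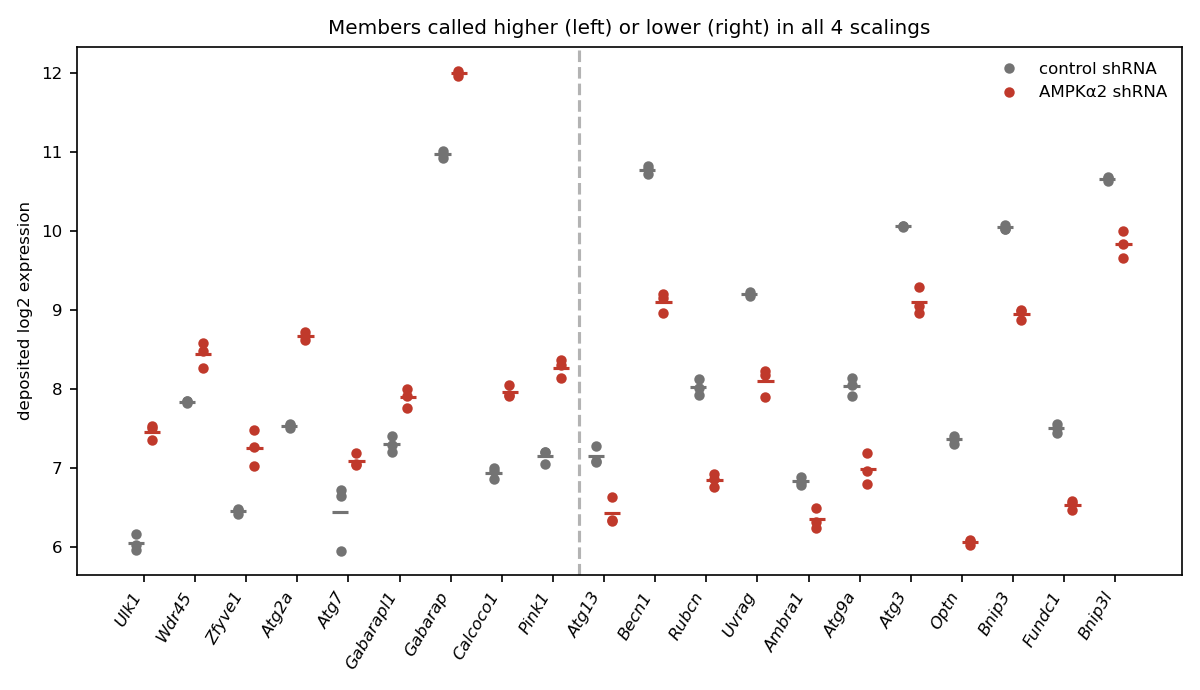
Deposited log2 expression (vertical axis) on each of the 6 arrays for the 20 members called in 1 direction in all 4 scalings; points are arrays, short lines group means, and the dashed line parts the 9 higher from the 11 lower members. In each of the 20 genes the groups do not overlap, and the control points of Atg7 spread from 5.95 to 6.73.

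Genes of mitophagy, the removal of mitochondria by autophagy, were called in both directions, the receptors as lower and the kinase gene Pink1 as higher. Bnip3, Bnip3l and Fundc1 encode receptors that sit in the outer mitochondrial membrane and bind LC3 directly. Bnip3 read 9.01, 8.99 and 8.87 with the hairpin and 10.08, 10.03 and 10.03 in the control, a fall of 1.09 (SE 0.08, adjusted p = 4.16e-07). Bnip3l, also known as NIX, fell by 0.83 (SE 0.10) from 10.66 ± 0.02 (SD, n = 3) to 9.84 ± 0.17, and its other probe set fell by 0.92. Fundc1 fell by 0.97 (SE 0.08) from 7.51 ± 0.06 (SD, n = 3) to 6.54 ± 0.06. All 3 membrane receptors were lower in all 4 scalings, with falls of 0.36, 0.24 and 0.72 on the quantile scale and of 0.39, 0.19 and 0.75 on the loess scale. Over all genes 26.4% were lower in all 4 scalings. As deposited, genes of the levels of Bnip3, Bnip3l and Fundc1 had median changes of -0.71, -0.47 and -0.49. Bnip3l was no longer called in all 4 without the second or without the third hairpin array. Pink1, the kinase that marks damaged mitochondria for the parkin pathway, went the other way. It read 8.31, 8.38 and 8.14 with the hairpin and 7.21, 7.05 and 7.21 in the control, and rose by 1.12 (SE 0.09, adjusted p = 9.85e-07), 1.65 on the quantile and loess scales. Optn encodes optineurin, a receptor of ubiquitin-coated cargo that acts after PINK1. It read 6.03, 6.08 and 6.09 against 7.38, 7.41 and 7.31, with a gap of more than 1 unit between the groups. Optn fell by 1.30 (SE 0.08, adjusted p = 1.05e-07), its other probe set fell by 0.42, and genes of its level had a median of 0.19. The probe set used was the brighter in the control, at 7.37 against 6.89, and the dimmer with the hairpin, at 6.06 against 6.47. On the quantile and loess scales the probe set used fell by 1.22 and 1.26. Bnip3 and Pink1 are the genes of this step whose printed promoters share CACGTG.

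The other soluble receptors varied. Calcoco1, a receptor for endoplasmic reticulum and Golgi cargo, read 8.06, 7.93 and 7.91 with the hairpin and 6.999, 6.87 and 6.97 in the control. Every hairpin array was higher, by a rise of 1.02 (SE 0.09, adjusted p = 9.59e-07), while genes of its level had a median of -0.49, and the rise was 1.48 on the quantile scale and 0.80 on the centred scale. Sqstm1, which encodes p62, the receptor that is itself degraded by autophagy, read 10.67, 10.60 and 10.45 against 10.64, 10.64 and 10.68. These groups overlapped, and the change of -0.08 did not pass (adjusted p = 0.393). Its other 3 probe sets rose by 0.31 to 1.13, at control levels of 10.13, 5.73 and 4.05. The change of the one used was 0.47 on the quantile scale, 0.51 on the loess scale and -0.30 on the centred scale, each of which passed. No direction for Sqstm1 was thus common to its probe sets and scalings. Tax1bp1, a receptor for protein aggregates, had -0.30 (SE 0.08, adjusted p = 0.00535), which was 0.24 on the loess scale, where it passed too. As a step, in which Pink1 is counted, the receptors had 2 higher and 5 lower of 8 as deposited, 3 and 4 on the quantile scale, 4 and 4 on the loess scale, and 2 and 6 on the centred scale. Of all genes 43.6% were higher and 41.5% lower as deposited, and 43.8% and 28.9% on the quantile scale.

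The genes of fusion with the lysosome had no member that was called in 1 direction throughout, as were 52.0% of all genes. Of 4 members 1 was higher and 1 lower as deposited, and 2 were higher and 0 lower on the quantile scale. Over all genes 43.6% were higher and 41.5% lower as deposited, and 43.8% and 28.9% on the quantile scale. Epg5, a tether, rose by 0.43 (SE 0.11, adjusted p = 0.00487) and did not pass on the centred scale (0.21). Without the third hairpin array or without the third control array Epg5 was called higher in all 4 scalings. Snap29, a SNARE partner of syntaxin 17, had -0.29 (SE 0.09), which passed as higher on the quantile scale (0.26) and the loess scale (0.21), and another of its probe sets rose by 0.33. Stx17, the syntaxin of the autophagosome, stood at a low level, 4.56 ± 0.10 (SD, n = 3) in the control, and its change of 0.25 did not pass in any of the 4 scalings. Tecpr1, a tether on the lysosome, had -0.15 (adjusted p = 0.3) and was called on the centred scale alone, as lower (-0.36), while its other probe set fell by 0.63. FOXO factors induce several autophagy genes in other tissues. Foxo3 had -0.47 (SE 0.08) with the probe set used, at a control level of 8.90, which turned to 0.27 on the quantile scale and 0.24 on the loess scale, and its other probe sets rose by 0.71 and 0.28. Foxo1 had -0.16, which did not pass (adjusted p = 0.241), was called on the centred scale alone, as lower (-0.37), and its other probe sets rose by 0.83 and 0.50.

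**Figure D3:**
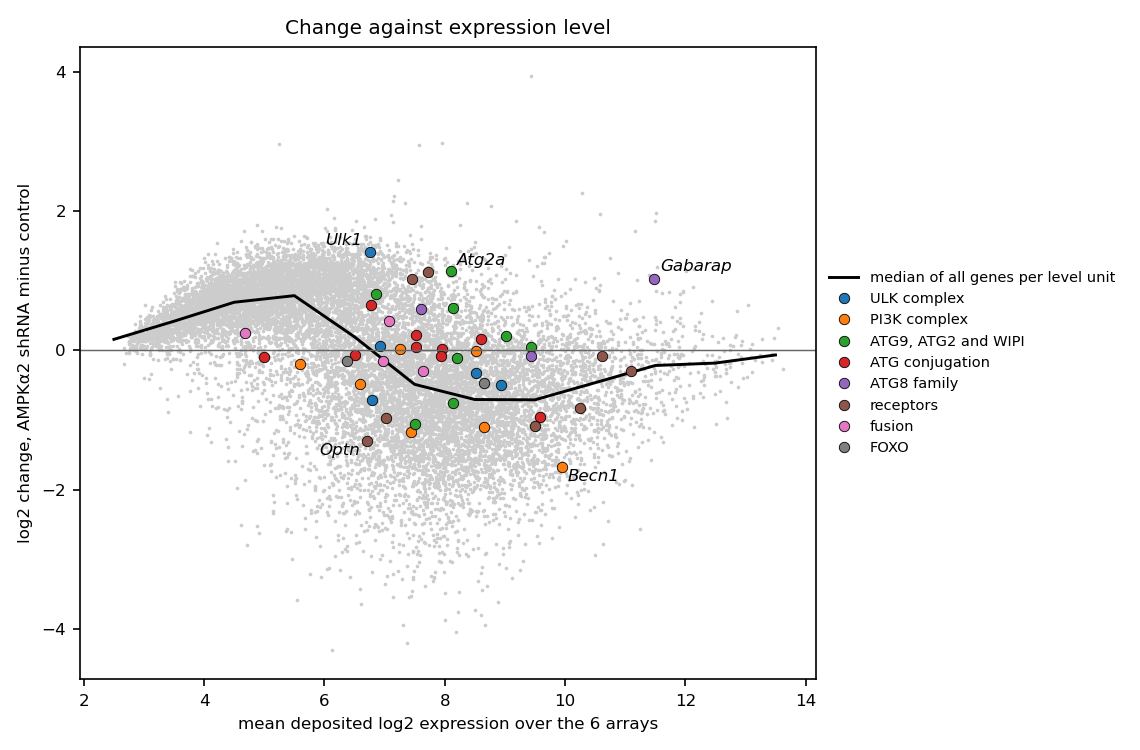
Log2 change (vertical axis, AMPKα2 shRNA minus control) against mean deposited log2 expression over the 6 arrays (horizontal axis) for all 14217 genes in grey and the 46 members coloured by step; the black line joins the median change of all genes per unit of level. The line runs from 0.79 at levels of 5 to 6 to -0.71 at levels of 8 to 9, Gabarap and Atg2a lie above the median of their level unit by 1.24 and 1.84, and Optn and Becn1 lie below theirs by 1.49 and 0.96.

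Agreement between probe sets limited several members. Of the 46, 25 were read by 1 probe set and 21 by more. In 7 of these 21, which were Atg2b, Atg9a, Foxo3, Gabarap, Rubcn, Snap29 and Zfyve1, probe sets passed in both directions, against 20.5% of the 4525 genes with several probe sets. In 4, which were Ulk1, Gabarapl1, Optn and Bnip3l, all probe sets passed in 1 direction. Among the 20 members called in 1 direction in all 4 scalings, 10 had 1 probe set, these 4 had agreeing ones, 4 (Rubcn, Atg9a, Zfyve1 and Gabarap) had an opposed one, and Ambra1 and Atg7 had one that did not pass. Over all 78 probe sets of the members 30 were called higher, 22 lower and 26 not, beside 47.8% higher and 34.1% lower of all 31042 probe sets. The probe set used was the brightest by its mean over all 6 arrays, and the opposed ones of Rubcn, Gabarap and Atg9a stood at 3.68, 7.63 and 6.42 in the control. With the hairpin these opposed ones stood at 4.32, 7.09 and 6.97, against 6.85, 12.00 and 6.99 for the ones used. In Atg9a the probe set used, at 8.04 in the control, was thus the brighter almost wholly through the control arrays. In Zfyve1 the opposed probe set stood at 6.78 in the control, above the one used at 6.46. With the hairpin they stood at 6.17 and 7.26, so the one used was the brighter through the hairpin arrays alone. In Optn the probe set used was the brighter through the control arrays alone. The same held in Foxo1, where it stood at 6.45 in the control and 6.29 with the hairpin. Another probe set of Foxo1 stood at 5.76 and 6.59. Which transcripts each probe set reads was not tested.

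**Figure D4:**
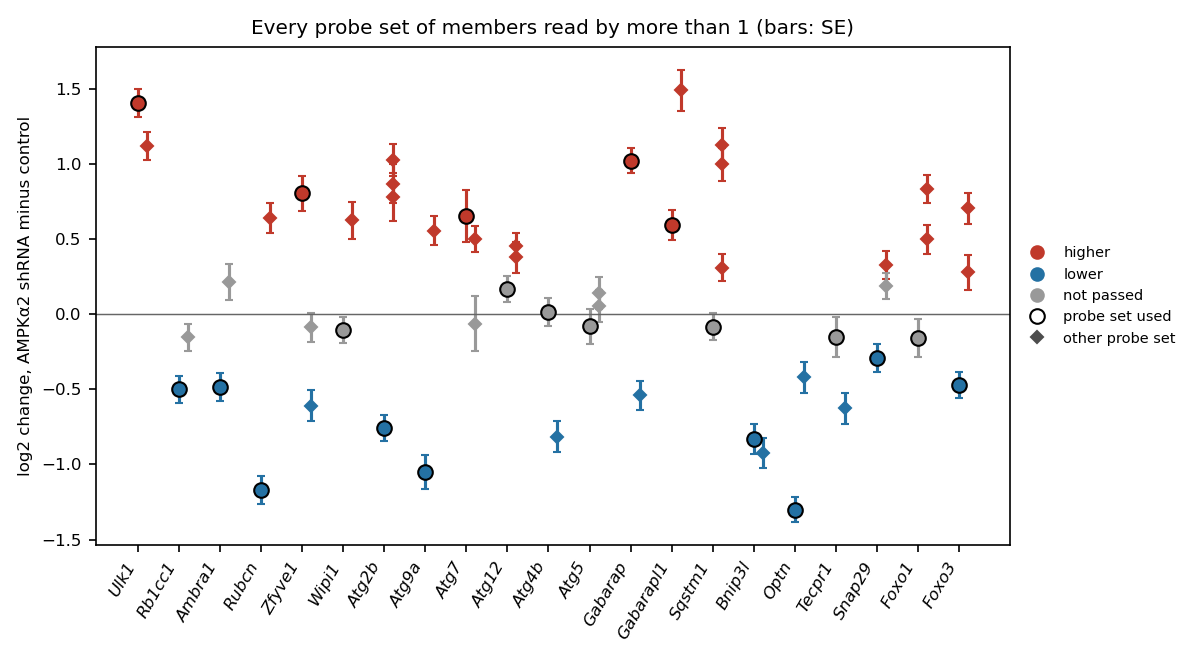
Log2 change (vertical axis, AMPKα2 shRNA minus control, bars are SE) of every probe set of the 21 members with more than 1; large circles are the probe sets used, diamonds the others, red and blue those that passed higher or lower. Ulk1, Gabarapl1, Optn and Bnip3l have all points on 1 side, while the 4 points of Atg2b span -0.76 to 1.03.

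Further genes of the pathway were taken from 6 lists of 53 genes in all, 50 of them measured. As deposited 14 were higher, 27 lower and 9 did not pass, with a median change of -0.29 beside 0.05 for all genes, of which 43.6% were higher and 41.5% lower. At mean levels of 7 or more the median change of all genes was -0.59, and 67.9% of them were lower. Of the 50 genes 32 lay above the median change of their unit of level, as did 7104 of all 14217. On the quantile scale 27 were higher and 10 lower (43.8% and 28.9% of all genes). On the loess scale these counts were 27 and 12 (40.2% and 31.5%), and on the centred scale 12 and 33 (35.0% and 48.2%). In all 4 scalings 11 were higher and 10 lower (25.5% and 26.4%). The same shares of all genes apply to each of the 6 lists. Upstream of ULK1, 4 of 13 genes were higher and 6 lower as deposited, and 6 higher and 2 lower on the quantile scale. Prkaa1, the other catalytic subunit of AMPK, was lower by probe sets at -2.34 (SE 0.09) and -1.03 and higher by another, at a control level of 3.87. Prkab2, a scaffold subunit of AMPK, rose by 0.95 (SE 0.11). The inhibitors of mTORC1 parted, since Tsc1 rose by 0.47 (SE 0.11) with both of its probe sets and Tsc2 fell by 0.86 (SE 0.08). Among 5 measured partners of beclin 1 and lipid phosphatases 1 was higher and 3 lower as deposited, and 2 higher and 1 lower on the quantile scale. Bcl2, which encodes an inhibitor that binds beclin 1, rose by 0.92 (SE 0.13) from a low 4.48, and Sh3glb1, which encodes its partner endophilin B1, fell by 1.21 (SE 0.11).

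Of 6 relatives of the membrane and conjugation genes 2 were higher and 2 lower, both as deposited and on the quantile scale. Tmem41b, a scramblase that acts beside VMP1, rose by 1.18 (SE 0.08), and Wdr45b, which encodes WIPI3, rose by 0.94 (SE 0.09). Both WIPI genes of the WDR45 type were thus higher in all 4 scalings. Wdfy3, whose protein ALFY brings aggregates to the autophagosome, had -1.61 (SE 0.08), with an opposed probe set at 0.50, and Ei24 fell by 0.91 (SE 0.08). Of 11 other cargo receptors and their helpers 2 were higher and 8 lower as deposited, and 6 higher and 1 lower on the quantile scale. Receptors of the endoplasmic reticulum were among those called in 1 direction throughout. Ccpg1 rose by 1.20 (SE 0.08) with 1 of its 2 probe sets and Rtn3 rose by 0.55 (SE 0.08) with all 3. Retreg1, also known as FAM134B, had -1.50 (SE 0.09), and its other probe set rose by 0.41.

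Of 10 tethering and fusion genes 2 were higher and 6 lower as deposited, and 8 higher and 2 lower on both the quantile and the loess scale. Vps18 rose by 0.74 (SE 0.10), while Vps16, another subunit of the same HOPS tether, fell by 0.93 (SE 0.09), as did the adaptor gene Plekhm1 by 0.81 (SE 0.08). The transcription factors of the TFEB family, with Foxo4, were 3 higher and 2 lower in each of the 4 scalings. Tfeb, a main activator of lysosome and autophagy genes, rose by 0.43 (SE 0.09, adjusted p = 0.000631), and by 1.02 on the quantile scale. Foxo4 rose by 0.94 (SE 0.12), and Tfec rose by 1.03 (SE 0.13) from a low 3.67. Its relatives Tfe3 and Mitf fell by 0.86 (SE 0.08) and 0.80 (SE 0.10), where the other 2 probe sets of Tfe3 did not pass.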

How the data were processed

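The labels' protocols describe Trizol RNA and cRNA labelled by an Affymetrix one-cycle kit. What the authors deposited is log2 expression, with 1 number for each probe set on each array, and the background correction, summary and normalization behind it are not given in the sources used here. Array controls, 57 of the 31099 probe sets, were dropped. Among the 31042 that stayed, the platform annotation gives 1 gene symbol for 20826, several for 436 and none for 9780. Each gene was read by its brightest probe set, giving 14217 genes.

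Groups were compared on all 14217 genes with limma 3.58.1 in R 4.3.3 (lmFit, eBayes, 2-sided, no covariate), with Benjamini-Hochberg adjustment and a threshold of 0.05. An exact permutation test of 3 against 3 arrays cannot give a p under 0.1. Single probe sets were tested in the same way over all 31042. The fit was tested on simulated data. Signal over background was not used, and the number of arrays limits the precision. Members, steps and lists were chosen with earlier results of these data known. All members are named; values on every array are given for Ulk1, Becn1, Sqstm1 and, per step, up to 2 members with the largest rise and 2 with the largest fall in all 4 scalings. For the same rule Map1lc3b had no value, and Map1lc3a is shown beside it. Alternatives were rescaling (cyclic loess in 3 iterations), filters on level, probe set choice, variance models, array weights, a replicate block, other thresholds and leaving out each array. The replicate numbers were checked for pairing by the correlation of deviations from the group means, which was -0.02, 0.01 and -0.10 for equal numbers, so they were not taken as pairs.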

Additional observations from a re-analysis of the deposited data

How the results depend on the processing

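The number of arrays and the unknown processing of the deposited values limit these results. As deposited 11 members were called higher and 16 lower. After quantile normalization 27 were higher, after cyclic loess 28 were higher and 41 passed in all, and after median centring 27 were lower. With the most variable probe set 18 were higher. At a fold of at least 2, 11 passed, 5 higher and 6 lower, and 4293 of all genes did. Without the lowest 50% of genes 6023 of all genes passed, since fewer were tested. Leaving out each array in turn gave 26 to 30 member calls, 10 to 14 higher and 16 to 18 lower, and 11573 to 12024 over all genes. Robust variance changed no call of a member.

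In some members the change took the opposite sign to the deposited one. Of those listed here, only Rb1cc1, Tax1bp1, Snap29, Foxo3 and Atg2b were called as deposited, all as lower. The others had no deposited call to reverse. After quantile normalization Atg101 had 0.39, Rb1cc1 0.26, Pik3r4 0.71, Wipi1 0.58, Atg5 0.54, Map1lc3a 0.66, Sqstm1 0.47, Tax1bp1 0.15, Snap29 0.26 and Foxo3 0.27. Among these the change of Tax1bp1 did not pass (limma, adjusted p = 0.138). After cyclic loess Atg101 had 0.37, Rb1cc1 0.22, Pik3r4 0.69, Wipi1 0.55, Atg5 0.51, Map1lc3a 0.63, Sqstm1 0.51, Tax1bp1 0.24, Snap29 0.21 and Foxo3 0.24. With the mean of probe sets Atg2b had 0.48, Wipi1 0.26, Atg4b -0.40, Sqstm1 0.59, Snap29 0.076, Foxo1 0.39 and Foxo3 0.17. With the most variable probe set Atg2b had 1.03, Wipi1 0.63, Atg4b -0.81, Sqstm1 1.13, Snap29 0.33, Foxo1 0.83 and Foxo3 0.71. The other probe sets account for the last 2 settings by construction; for the others the cause was not tested.

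The next alternatives were chosen after seeing the data. The count of 20 members called in 1 direction in all 4 scalings was 17 to 19 without each array in turn. The members lost were Atg7, Atg3 and Bnip3l, and Epg5 was gained without the third hairpin array and without the third control array. With the mean of probe sets the count was 18, 15 of them shared, without Zfyve1, Atg7, Gabarap, Ambra1 and Atg9a. It was 27 with the most variable probe set. The equal replicate numbers did not pair the arrays. With the replicate block 28 members passed, 11 higher and 17 lower, the added call being Atg101.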
